A study of Homo sapiens with 6 samples.

Results

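The baseline transcriptome of H1299 cells carrying the mock vector PLVT7 was described from 3 sequenced libraries, those whose titles name the mock vector, of the 6 libraries in the series. H1299 is an established cell line grown from a human lung carcinoma. The labels give the cell type and tissue as lung adenocarcinoma and the genotype as WT, and the growth protocol calls the cells mesenchymal. All 3 libraries came from cells kept in RPMI-1640 with 10% serum, in which stable transfectants had been selected with 1 µg/ml of puromycin from cultures 14 days past confluence. These are therefore drug-selected vector carriers, and no library of unmodified H1299 cells was used. The libraries were made from total RNA with a NEBNext Ultra kit and read on a NovaSeq instrument. The 3 mock libraries held 29545322, 28122665 and 29526518 counts over 58336 annotated genes. Nothing in the labels says whether they came from separate cultures, so the spread given with each value, mean ± SD over the 3 libraries, may be technical.

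Levels are given as FPKM, the fragments counted on a gene per kilobase of its exons, scaled to the library's total count. For 97.3% of genes with a count, the length used was that of all annotated exons together. Its median was 5677 bases for coding genes between 1 and 10 FPKM, against 3368 bases for their main annotated transcript. Levels of different genes are therefore compared only roughly, and a gene with long exons that its message does not use reads too low. The FPKM of the 3 libraries summed to 271076, 262438 and 266885, so that 1 FPKM equalled 3.69, 3.81 and 3.75 TPM, the unit that sums to the same total in every library. A gene is counted as detected here where it reached 1 FPKM in all 3 libraries, and silent where its mean was under 0.1 FPKM. A count of 0 in a library allows up to 3 counts, and the FPKM that 3 counts would give in the shallowest library is stated beside genes without a count. These limits cover counting error only.

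Most of a cell's messenger RNA serves functions that every dividing cell shares, such as making ribosomes, proteins, energy and the cytoskeleton. The identity of a cell shows in a far smaller set of genes, in which transcription factors and the receptors and structural proteins of its lineage are switched on while those of other lineages are off. Adenocarcinomas of the lung resemble the gland-forming or alveolar epithelium and usually keep the transcription factor NKX2-1, surfactant-related genes and the adhesion molecules EPCAM and E-cadherin. In the epithelial to mesenchymal transition, carcinoma cells lose those junction genes and gain vimentin, N-cadherin and the repressors ZEB1 and TWIST1.

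The 3 mock libraries were not equally alike. The chi-square of their counts per degree of freedom was 27.5 between libraries 1 and 2, 20.6 between libraries 1 and 3, and 12.8 between libraries 2 and 3, where sampling noise alone gives values near 1. No pair agreed within sampling noise, which does not show that they came from separate cultures. The median coefficient of variation of the detected genes was 9.62%, with quartiles of 5.95% and 14.3%. Of 7130 genes with a mean of at least 5 FPKM, 78 differed by more than 2-fold between the highest and the lowest library, and 54 of these 78 were lowest in library 2. Without library 2 the count of 78 became 17. The genes lowest in library 2 were rich in G and C: the median GC content of their main annotated transcript was 64.2%, against 48.4% over the 7130 genes. Across 6623 coding genes at this level, the median log2 ratio of library 2 to the mean of the others was 0.22 for transcripts under 40% GC and -0.31 for those of 65% GC and over, while library 1 ran the other way, at -0.32 and 0.21. What GC content contributed to the level of any named gene was not tested, and values in each library are given for the genes most affected.

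**Figure D1:**
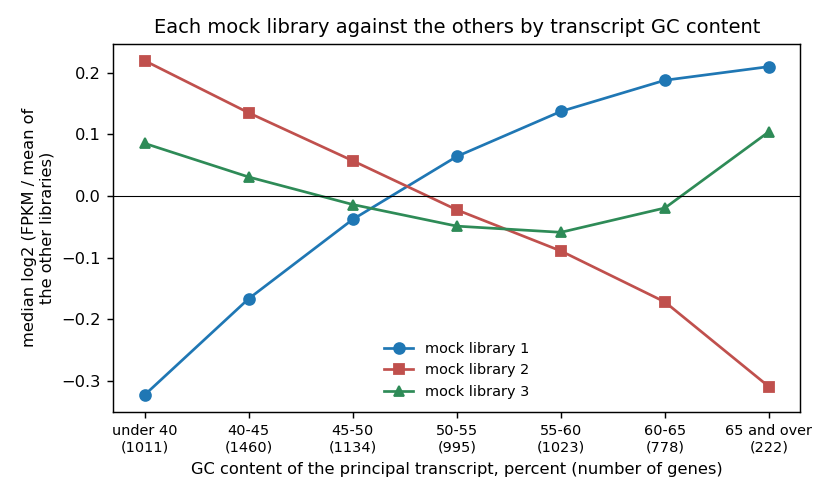
Median log2 ratio of each mock library's FPKM to the mean of the other libraries (vertical axis), for coding genes with a mean of at least 5 FPKM grouped by the GC content of their principal transcript (horizontal axis, number of genes in parentheses). Library 1 sits at -0.32 in the lowest GC group and 0.21 in the highest, library 2 at 0.22 and -0.31, and library 3 between -0.06 and 0.10 in every group.

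Many of the largest ratios between libraries belonged to small, GC-rich genes or to genes with near-identical copies. The main transcripts of FTH1 and of the lincRNA AC012306.2 had a GC content of only 50.1% and 51.9%. TMEM160, a mitochondrial protein gene, had 4.54, 0.429 and 16.6 FPKM in libraries 1, 2 and 3, a ratio of 38.6 between the highest and the lowest. FTH1, the ferritin heavy chain that stores iron, had 93.4, 3.87 and 106 FPKM. CFD, the complement protease factor D, had 17.4, 2.44 and 13 FPKM, and CCDC85B, a coiled-coil protein gene, had 45.7, 10.2 and 65.4 FPKM. In each of these genes library 2 was the lowest by a wide margin. MRPL41, a protein of the mitochondrial ribosome, had 33.4, 9.44 and 46.5 FPKM, and EVA1B had 28.2, 7.84 and 35.1 FPKM, with 46.6% of the exon bases of its main transcript free of other genes. The other 4 of the 10 genes with the largest ratios were the rRNA gene RNA5-8SN2, the pseudogenes RPL13P12 and RPS2P5, and the lincRNA AC012306.2, with ratios of 15, 5.48, 4.63 and 5.47. Only 28.4% of the exon bases of the main FTH1 transcript are free of overlap with exons of other annotated genes, so the FTH1 values are uncertain in all 3 libraries.

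Of the 58336 genes in the table, 11908 were detected, of which 10326 were protein-coding. The detected coding genes were 52.0% of the 19865 coding genes in the table, and 33.8% of the coding genes were silent, 3434 of them without a count in any library. These shares are the background against which every list count below is to be read. The levels spanned several orders of magnitude: the median detected coding gene stood at 7.53 FPKM, the quartiles at 3.57 and 16.5 FPKM, and the highest 1% at 250.3 FPKM and above. There were 3832 coding genes between 10 and 100 FPKM and 320 at 100 FPKM or more. The genes of this top class had short main transcripts, with a median of 1558 bases against 3368 bases for the 6405 coding genes between 1 and 10 FPKM. The median length of all their annotated exons was 2747 against 5677 bases. FPKM divides by that length, so this contrast is partly built into the unit. The 10 most abundant genes held 10.3% ± 0.592 of the summed FPKM, and the 100 most abundant held 31.7% ± 0.934. Among those 100 were 16 mitochondrially encoded genes, 32 cytosolic ribosomal protein genes and 8 pseudogenes, which left 44 others.

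**Figure D2:**
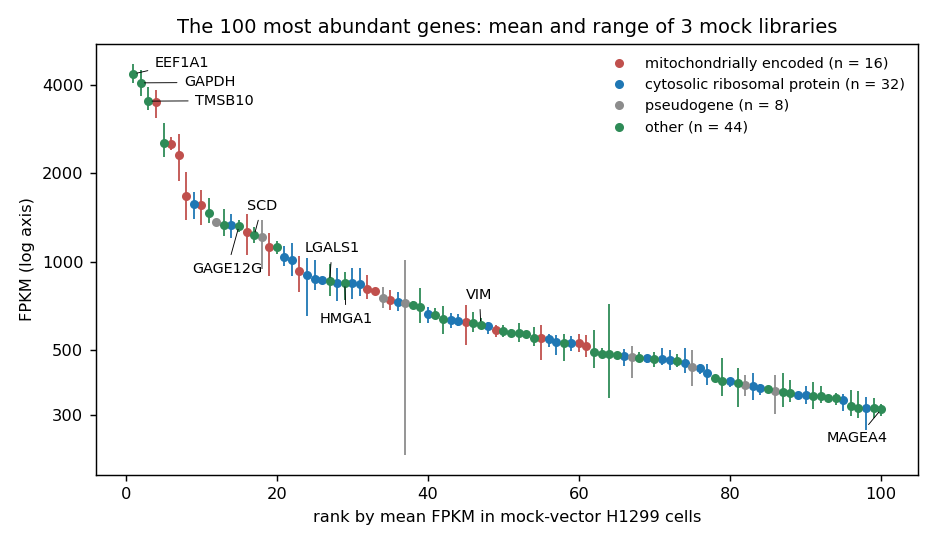
The 100 most abundant genes of mock-vector H1299 cells by rank (horizontal axis), with the mean FPKM of 3 libraries as a point and the lowest and highest library as the ends of a line (log axis), coloured by class. EEF1A1, GAPDH and TMSB10 lead at 4346, 4053 and 3513 FPKM; the long line at rank 37 is the pseudogene RPS2P5, which was far lower in library 2.

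The most abundant message was EEF1A1, the elongation factor that brings aminoacyl-tRNA to the ribosome, with 4714, 4063 and 4260.2 FPKM in libraries 1, 2 and 3 (4346 ± 334). The factor that moves the ribosome along the message, EEF2, had 1642, 1351 and 1400.4 FPKM. Both were highest in library 1, and the highest library was 1.16 and 1.22 times the lowest. The proteins of the ribosome itself made up 10.0% ± 0.489 of the summed FPKM over 77 genes, of which 75 were detected and 59 had a mean of at least 100 FPKM. RPL41 led them at 1572 ± 168 FPKM, followed by RPS12 at 1328 ± 124, RPL8 at 1035 ± 80.9, RPLP0 at 1008 ± 135 and RPS2 at 897 ± 213 FPKM. Proteins of 1 particle are needed in equal amounts, yet the values of their genes ran down to 6.52 FPKM for RPS29, 1.39 for RPL36A and 0.606 for RPS10. The exons of the main transcript were 22.4% free of other genes for RPL36A and 23% for RPS10, but 100% for RPS29. RPS29 had 2354, 1447 and 1817 counts, which were divided by a long annotated exon length. In the shallowest library 3 counts would give 0.0108 FPKM for RPS29, against 0.098 FPKM for RPL41. The FPKM of RPS29 therefore cannot be set directly against that of RPL41. Messages of the translation machinery are known to start at a C followed by an unbroken run of pyrimidines, the 5′ terminal oligopyrimidine tract through which growth signals control their translation. The annotated starts of leading genes with and without such a tract are set side by side here. Each line runs from 10 bases before the annotated start to 20 bases from it, and the capitals mark the run of C and T that begins at the start base.
EEF1A1: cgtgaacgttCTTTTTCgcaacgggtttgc
EEF2: cgtcagcgttCTCTTCCgccgtcgtcgccg
RPL41: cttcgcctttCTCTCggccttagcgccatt
RPS12: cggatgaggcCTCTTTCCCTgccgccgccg
RPLP0: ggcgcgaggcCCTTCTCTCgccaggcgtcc
GAPDH: gtgcatccctgtccggatgctgcgcctgcg
TMSB10: ccgctcttttgtttcttgctgcagcaacgc
ENO1: cggcgcggacagtatctgtgggtacccgga
SCD: cgcccgcgccagtcaactcctcgcactttg
The sequences are those of RefSeq on GRCh38.p14. They lie at chr6:73521013-73521042 on the minus strand for EEF1A1, chr19:3985444-3985473 on the minus strand for EEF2, chr12:56116623-56116652 on the plus strand for RPL41, chr6:132814559-132814588 on the plus strand for RPS12, chr12:120201092-120201121 on the minus strand for RPLP0, chr12:6535254-6535283 on the plus strand for GAPDH, chr2:84905646-84905675 on the plus strand for TMSB10, chr1:8878667-8878696 on the minus strand for ENO1 and chr10:100347223-100347252 on the plus strand for SCD. The run was 7 bases long in EEF1A1 and in EEF2, 5 in RPL41, 10 in RPS12 and 9 in RPLP0. In GAPDH, TMSB10, ENO1 and SCD no C followed by 4 pyrimidines begins at the start base. Of the 62 ribosomal protein genes with a RefSeq start (80.5% of 77), 46, or 74.2%, had at least 1 annotated start of this form, against 7.42% of the 8546 other detected coding genes with a start and 5.14% of all 27305 genes with one. A match describes the letters at an annotated start and was not tested as a site of control in these cells.

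Mitochondrially encoded genes held 7.76% ± 0.841 of the summed FPKM, with 8.40%, 8.07% and 6.80% in libraries 1, 2 and 3, so that library 3 was the lowest. All 13 coding genes of the mitochondrial genome were detected, at a median of 926.5 FPKM. MT-CO1, MT-CO2 and MT-CO3, the catalytic core of cytochrome c oxidase, stood at 3495 ± 387, 2309.5 ± 417 and 1263 ± 203 FPKM. The complex I subunits MT-ND4L and MT-ND4, which share a message, stood at 1673 ± 318 and 1559 ± 212 FPKM, MT-ND5 at 927 ± 131 FPKM and the ATP synthase subunit MT-ATP6 at 1119 ± 196 FPKM. The large mitochondrial rRNA MT-RNR2 reached 2512 ± 132 FPKM. By counts, which are not divided by gene length, the mitochondrial share was 2.01%.

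Enzymes of glycolysis, a set chosen after the values were seen, were among the leading genes. GAPDH had 4471, 3659.7 and 4029.9 FPKM and was the second most abundant gene, ENO1 (enolase) had 1173, 1062 and 1112 FPKM, and TPI1 and PGK1 stood at 618 ± 48.7 and 579 ± 27 FPKM. Of the lactate dehydrogenase genes, LDHB stood at 486 ± 17.9 FPKM, with 23.5% of the exon bases of its main transcript free of other genes. LDHA stood at 367 ± 10.7 FPKM. By counts the order was reversed, with 65500, 63897 and 69368 for LDHA and 44641, 39784 and 42007 for LDHB. PKM, the pyruvate kinase gene, stood at 348 ± 25.4 FPKM. ALDOA, the aldolase of the same pathway, was listed at 12.9 ± 1.87 FPKM, but none of the exon bases of its main transcript is free of other annotated genes, so its level is not known from this table. These 8 genes together held 2.84% ± 0.161 of the summed FPKM, a share that takes in ALDOA and leaves out other enzymes of the pathway. PGAM1, among those left out, stood at 403 ± 7.0 FPKM.

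Among the remaining genes of the top 30, TMSB10, a small protein that binds actin monomers, had 3910.3, 3281 and 3347 FPKM, and ACTG1, cytoplasmic gamma actin, had 1511, 1259.8 and 1221 FPKM. SCD, the desaturase that makes oleic acid from stearic acid, had 1159.8, 1307 and 1214 FPKM and ranked 17 of all genes. LGALS1, the galactoside-binding galectin 1, stood at 857 ± 111 FPKM, RPL7A and RPL13A at 862 ± 14 and 873 ± 121 FPKM, and RPS16 and RPL7 at 844 ± 101 and 846 ± 109 FPKM. HMGA1, a chromatin protein of fetal tissues and many carcinomas, had 923, 739.7 and 870.3 FPKM and ranked 29. The highest library was 1.3 times the lowest in RPL7 and less than that in each of the others. CCNB1, the cyclin that drives entry into mitosis and the gene the series was built around, stood at 118 ± 4.78 FPKM, with 121, 120.1 and 112 FPKM in the 3 libraries.

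Among the 20 leading genes, 4 cannot be read as the level of 1 gene. FP236383.3, a lincRNA of chr21:8437629-8438551 on the minus strand in GENCODE release 29, had 2265, 2364 and 2964 FPKM and ranked 5. It lies 1271 bases from an annotated 5.8S rRNA gene. EEF1A1P5, a processed pseudogene of EEF1A1, had 1360.5 ± 35.1 FPKM, and RPL9P9, a processed pseudogene of RPL9, had 1209 ± 237 FPKM, where RPL9 itself had 90.3 ± 13.6 FPKM. GAGE12G, a cancer-testis gene with near-identical neighbours, had 1323 ± 61 FPKM. Pseudogenes together held 5.62% ± 0.191 of the summed FPKM. The sources used here do not say how reads matching several copies were counted, so levels within such a family are uncertain.

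Markers of the lung epithelium were mostly silent, in cells whose labelled type is lung adenocarcinoma. What these levels say of the tumour of origin was not tested. NKX2-1, the transcription factor that marks the alveolar lineage and most lung adenocarcinomas, had 5, 9 and 13 counts in libraries 1, 2 and 3, a mean of 0.0979 ± 0.0429 FPKM. The surfactant genes SFTPA1, SFTPA2 and SFTPC had no count, which allows up to 0.0335 FPKM for SFTPC, and SFTPB had 2, 1 and 1 counts. NAPSA, the aspartic protease used beside NKX2-1 in diagnosis, stood at 0.11 ± 0.0415 FPKM. Only 3 of 13 markers of alveolar type 2 cells were detected, against 52.0% of all coding genes: ETV5, a transcription factor that many tissues use, at 26.7 ± 1.41 FPKM, the lipid transporter ABCA3 at 12.7 ± 1.74 FPKM and the lipid enzyme LPCAT1 at 4.97 ± 0.446 FPKM. Of 8 markers of alveolar type 1 cells, CAV1, the coat protein of caveolae in many cell types, was detected at 60.4 ± 1.52 FPKM, while AQP5, CLIC5 and PDPN had no count. AGER, another of the 8, had 1.89, 0.753 and 1.63 FPKM and passed 1 FPKM in all libraries but library 2.

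The other airway lineages were no better represented, where 52.0% of all coding genes were detected and 33.8% were silent. All 10 markers of club and goblet cells were silent, and 8 of them had no count, including the secretoglobin SCGB1A1, for which 0 counts allow up to 0.183 FPKM, and the mucins MUC5AC and MUC5B. Of 8 ciliated cell markers, TUBA1A alone was detected, a tubulin found in many cells, at 133 ± 24.2 FPKM, and FOXJ1, the master regulator of cilia, had no count, which allows 0.0404 FPKM. Of 12 basal and squamous markers, KRT15 was detected at 2.94 ± 0.156 FPKM, while TP63 had 4, 6 and 1 counts and KRT5, KRT14 and KRT6A none.

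Of 26 general epithelial markers 4 were detected, or 15.4%, against 52.0% of all coding genes, and 12 were silent, or 46.2% against 33.8%. CDH1, which encodes E-cadherin, had 1, 0 and 0 counts in the 3 libraries, and EPCAM had 5, 2 and 1 counts, a mean of 0.0363 ± 0.0278 FPKM. GRHL2 and OVOL2, transcription factors that hold the epithelial state, had no count, and the splicing regulator ESRP2 stood at 0.0265 FPKM. KRT18 and KRT8, the paired keratins of simple epithelia, had 98.3, 91.6 and 88.8 and 49.8, 45.2 and 48.8 FPKM, with the 3 libraries close together in both. The tight junction genes CLDN1 and OCLN, the other detected markers, stood at 14.2 ± 1.98 and 5.73 ± 0.716 FPKM. KRT7 and KRT19, keratins usual in lung adenocarcinoma, stood at 0.418 and 0.237 FPKM.

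Genes of the mesenchymal state were detected in 18 of 22 cases, a share of 81.8% against 52.0% of all coding genes. VIM, the intermediate filament vimentin, had 593, 641 and 597 FPKM and ranked 47 of all genes. Its main transcript has 47.4% of its exon bases free of other annotated genes, and the strand setting is not given, so reads of an overlapping gene cannot be told apart. The receptor kinase AXL had 184, 173 and 155 FPKM. CCN1 and CCN2, matricellular proteins and known targets of YAP, stood at 139 ± 7.53 and 25 ± 0.363 FPKM, and TGFBI at 18.9 ± 2.28 FPKM. CDH2, which encodes N-cadherin, the cadherin of mesenchymal cells, stood at 9.71 ± 0.276 FPKM. Of the transcription factors of the transition, ZEB1 stood at 8.45 ± 0.554, TWIST1 at 3.89 ± 0.191, TWIST2 at 2.22 ± 0.294 and ZEB2 at 2.03 ± 0.207 FPKM, whereas SNAI2 and SNAI1 stayed under the detection level at 0.552 and 0.32 FPKM. CDH11 had no count.

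**Figure D3:**
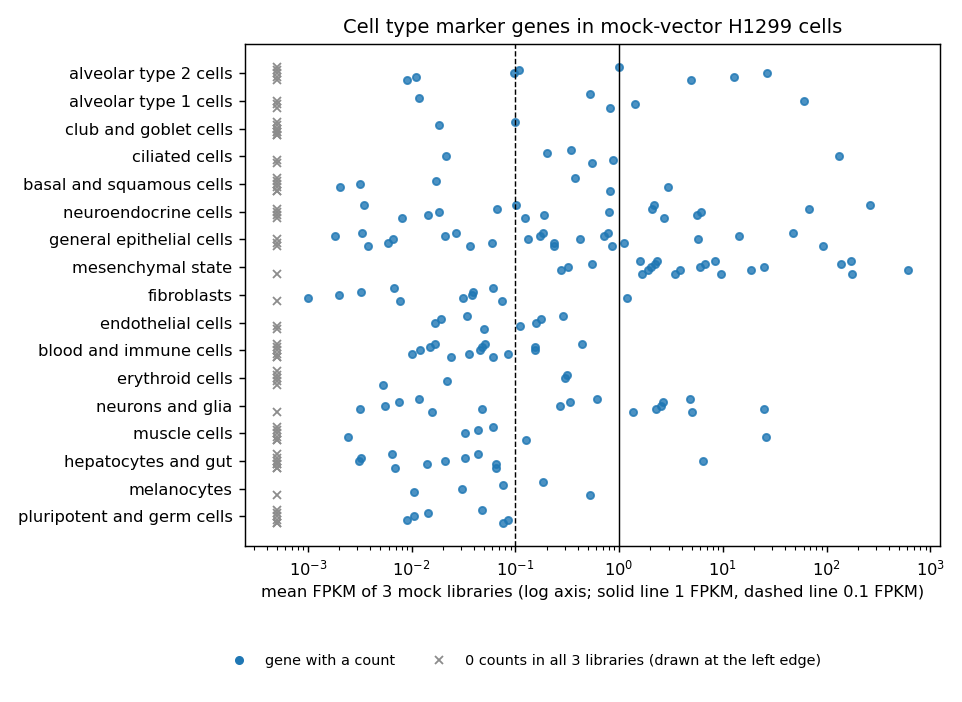
Mean FPKM over 3 mock libraries (horizontal log axis) of each gene in 17 lists of cell type markers (rows), with crosses at the left edge for genes without a count and lines at 1 and 0.1 FPKM. The mesenchymal list lies mostly right of the solid line, with 18 of 22 genes detected, and the club and goblet list lies wholly left of the dashed line.

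Markers of blood, vessel and stromal cells were silent or low. None of 20 blood and immune markers, 10 endothelial markers or 9 erythroid markers was detected, against 52.0% of all coding genes. PTPRC, which encodes CD45, had no count, which allows 0.0116 FPKM, and CDH5 and EMCN of the endothelium had none either. Of 12 fibroblast markers 11 were silent, or 91.7%, against 33.8% of all coding genes. COL1A1 had 16, 21 and 15 counts and DCN 12, 12 and 11 counts. ACTA2, smooth muscle actin, had 1.67, 0.801 and 1.07 FPKM and reached 1 FPKM in libraries 1 and 3. The summed level of these 4 lists ran from 0.641 FPKM for the erythroid one to 1.44 FPKM for the fibroblast one.

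Of 20 neuroendocrine markers 7 were detected, or 35.0%, against 52.0% of all coding genes, and 9 were silent. UCHL1, a ubiquitin hydrolase of neurons and neuroendocrine cells, had 284, 237 and 266 FPKM and ranked 116, and ENO2, the neuronal enolase, had 73.2, 64.8 and 63.8 FPKM. The granule proteins SCG2 and CHGB stood at 6.1 ± 1.23 and 2.08 ± 0.386 FPKM, and DLL3 at 2.69 ± 0.593 FPKM. NMB, the growth peptide neuromedin B, had 5.93, 3.2 and 7.79 FPKM, lowest in library 2, and 6.86 FPKM without that library. Factors that establish the neuroendocrine state were low: INSM1 had no count, which allows 0.0377 FPKM, and NEUROD1 had 7, 7 and 5 counts. CHGA, the granule protein chromogranin A, had 1, 1 and 3 counts and NCAM1 1, 3 and 5 counts.

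Of 17 markers of neurons and glia 7 were detected, or 41.2%, against 52.0% of all coding genes. A further 7 were silent, or 41.2% against 33.8%. The muscle, liver and gut, melanocyte, and pluripotent and germ cell lists held 1 detected gene or none. INA, a neuronal intermediate filament, had 22.9, 24.7 and 27.9 FPKM, and the synaptic genes SNAP25 and SYT1 stood at 5.09 ± 0.413 and 4.8 ± 0.396 FPKM, while ELAVL4 had no count and RBFOX3 had 3, 6 and 1 counts. TNNT1, troponin T of slow skeletal muscle, had 23.2, 26.2 and 29.4 FPKM, the 1 detected member of 12 muscle markers, among which MYOD1 and MYOG had no count. SERPINA1, the liver's antitrypsin, stood at 6.42 ± 0.597 FPKM, the 1 detected member of 18 markers of liver and gut, among which AFP and TTR had no count. All 12 markers of pluripotent and germ cells were silent, including POU5F1 at 0.0756 FPKM and NANOG with no count. Of 6 melanocyte markers none was detected.

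Transcription factors were listed by family. ID1, an inhibitor of basic helix-loop-helix factors, had 252, 142 and 313 FPKM, lowest in library 2, and 283 FPKM without that library, and ID3 had 60.6, 55.7 and 60.1 FPKM. MYC had 58.6, 53.2 and 65.4 FPKM, with its partner MAX at 10.1 ± 1.25 FPKM and MXI1, an antagonist, at 13.2 ± 2.18 FPKM. MYCN had 1, 0 and 0 counts and MYCL stood at 0.152 FPKM, so that MYC was the only detected MYC gene of the 3. FOXM1, which drives the genes of mitosis, had 36.6, 34.3 and 30.1 FPKM. SOX9, a factor of progenitor cells in the developing lung, had 26.4, 30.02 and 30.3 FPKM, ahead of SOX12 at 12.8 ± 1.81 FPKM and SOX4 at 2.9 ± 0.702 FPKM. Of 19 SOX genes 11 were silent, or 57.9%, against 33.8% of all coding genes.

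All 4 TEAD genes, the DNA-binding partners of YAP, were detected, with TEAD4 at 24.5 ± 3.01 FPKM, TEAD1 at 9.66 ± 0.748, TEAD2 at 7.94 ± 0.689 and TEAD3 at 6.03 ± 0.741 FPKM, and YAP1 and WWTR1 themselves stood at 28.1 ± 4.1 and 22.9 ± 1.81 FPKM. Of the NF-kB genes, NFKB2, RELB and RELA stood at 29.98 ± 4.18, 29.5 ± 5.54 and 20.2 ± 1.4 FPKM, and IRF3 at 12.9 ± 0.82 FPKM, while IRF4 and IRF8 of blood cells had no count and STAT5A had 4, 2 and 2 counts. Among KLF and SP genes 17 of 26 were detected, or 65.4%, against 52.0% of all coding genes. They were led by KLF6 at 28.2 ± 2.61, SP1 at 22.2 ± 0.939 and KLF10 at 16.8 ± 0.553 FPKM, and KLF8 and KLF17 had no count. FOXO3, FOXK2 and FOXJ2 followed FOXM1 in their family at 14.6 ± 0.751, 13.3 ± 0.487 and 12.6 ± 0.357 FPKM, and FOXA2, FOXA3 and FOXF1 of endoderm and lung were silent, with 1, 7 and 0 counts for FOXA2.

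Nuclear receptors, the hormone- and lipid-responsive factors, were detected in 23 of 48 cases, a share of 47.9% close to that of all coding genes. The highest were ESRRA, a regulator of mitochondrial genes, at 13.8 ± 1.14 FPKM, NR2F6 at 11.7 ± 2.08, the oxysterol receptor NR1H2 at 11.5 ± 0.889, and NR2F2 at 10.9 ± 0.342 FPKM. RARG, a retinoic acid receptor, and NR3C1, the glucocorticoid receptor, stood at 9.95 ± 0.919 and 9.38 ± 1.03 FPKM. The estrogen and progesterone receptors were silent, with 15, 3 and 6 counts for ESR1 and 3, 1 and 0 for PGR. RXRG and HNF4A were silent as well, with no count and 1, 0 and 1 counts.

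Of 27 NKX and TBX genes, factors of embryonic patterning, 6 were detected, or 22.2%, against 52.0% of all coding genes, at a list median of 0.204 FPKM. TBX18, a factor of mesenchyme in heart and urinary tract, had 7.58, 9.28 and 9.1 FPKM, and NKX2-6, known in mouse from the embryonic pharynx, had 10.1, 5.38 and 9.68 FPKM, lowest in library 2. NKX3-2, a factor of cartilage, stood at 2.91 ± 0.789 FPKM. TBX4 and TBX5, the T-box factors of the lung mesenchyme, had 4, 0 and 3 counts and none. SIX5 and SIX4 stood at 6.55 ± 0.305 and 5.08 ± 0.281 FPKM, and 3 of 15 listed genes of their family and the PAX family, or 20%, were detected. Only 36.4% of the exon bases of the main SIX5 transcript are free of other genes. GATA6, of endoderm, had 3.99, 3.38 and 5.89 FPKM, while GATA4 had no count. RUNX3, RUNX1 and RUNX2 stood at 6.93 ± 0.761, 4.1 ± 0.287 and 2.23 ± 0.133 FPKM, with their shared partner CBFB at 17.3 ± 3.19 FPKM.

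**Figure D4:**
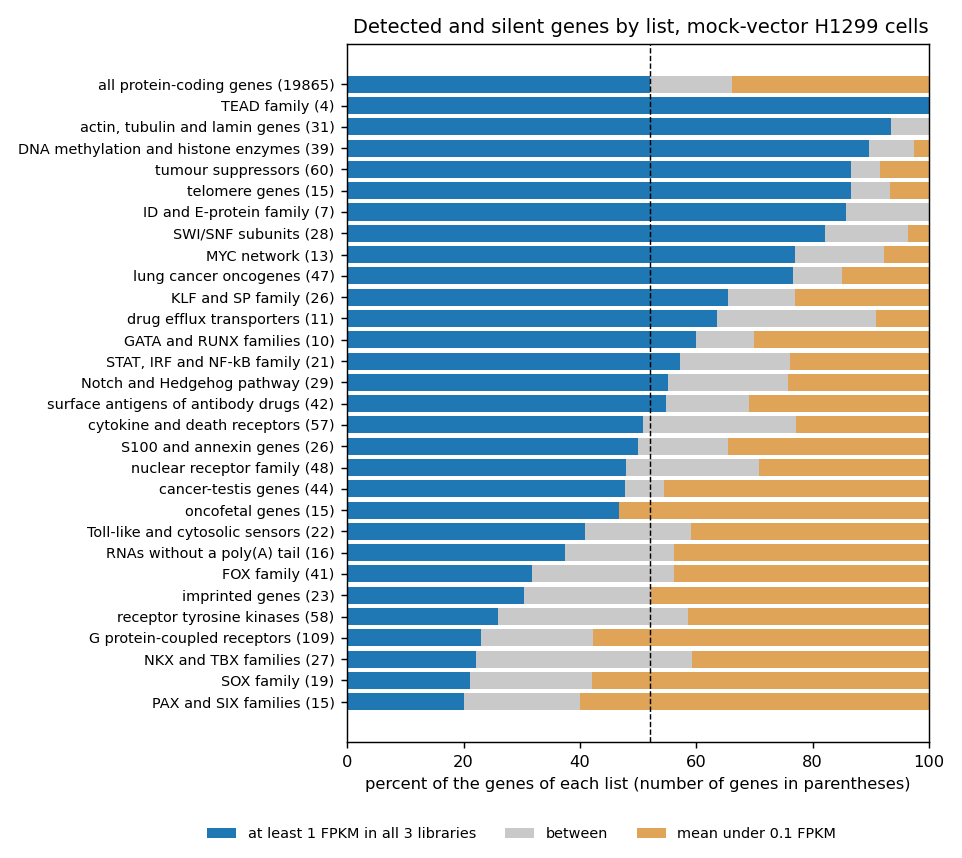
Share of the genes of each list (horizontal axis, percent; number of genes in parentheses) that reached 1 FPKM in all 3 mock libraries, that had a mean under 0.1 FPKM, or that lay between. The dashed line marks 52.0%, the detected share of all coding genes; chromatin enzymes, tumour suppressors and cytoskeletal genes lie right of it, and receptor kinases, G protein-coupled receptors and the SOX family and the NKX and TBX families left of it.

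Receptor tyrosine kinases, through which growth factors act, were detected in 15 of 58 cases, or 25.9%, against 52.0% of all coding genes, and 24 were silent, or 41.4% against 33.8%. AXL and EPHA2 were far above the rest at 171 ± 14.9 and 93 ± 12.3 FPKM. MET, the receptor of hepatocyte growth factor, had 20.8, 22 and 19.1 FPKM, EPHB4 stood at 13.6 ± 1.22 FPKM, and MERTK, a relative of AXL, at 10.2 ± 0.77 FPKM. FGFR1 stood at 9.57 ± 1.19 and EGFR at 7.53 ± 0.31 FPKM, and ERBB2 at 3.84 ± 0.483 FPKM. Kinases rearranged in some lung adenocarcinomas were silent: ALK had no count, which allows 0.0145 FPKM, ROS1 had none, which allows 0.0136 FPKM, and RET had 2, 0 and 1 counts. KIT, PDGFRA and PDGFRB, of blood and stromal cells, were silent too, at 0.0307, 0.0387 and 0.0736 FPKM.

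Of 109 G protein-coupled receptors 25 were detected, or 22.9%, against 52.0% of all coding genes, and 63 were silent, 30 of them without a count. The 2 highest were protease-activated receptors, F2RL1 with 101, 109 and 92.6 FPKM and the thrombin receptor F2R with 33, 34.1 and 31.6 FPKM. The adhesion receptors ADGRE5, which is CD97, and ADGRG6 stood at 32.3 ± 2.0 and 12.8 ± 1.42 FPKM. NTSR1, the neurotensin receptor, had 17.7, 14 and 15 FPKM, higher than most of its family. ADGRL1 stood at 9.6 ± 0.999 FPKM. CCR7 and CXCR2, chemokine receptors of white cells, had no count.

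Receptors of the tumour necrosis factor and cytokine families were detected in 29 of 57 cases, or 50.9%. TNFRSF1A, the main receptor of tumour necrosis factor, had 91.4, 74.8 and 83.5 FPKM, and TNFRSF12A, the TWEAK receptor, had 83.7, 47.3 and 95.6 FPKM, lowest in library 2. IL13RA2, the decoy receptor of interleukin 13, had 69.7, 76.2 and 73 FPKM, several-fold above IL13RA1 at 18.5 ± 1.91 FPKM. IL6ST, the shared chain gp130, stood at 35.8 ± 5.73 FPKM, the death receptor TNFRSF10B at 26.7 ± 1.82 FPKM and IFNGR2 at 21 ± 2.02 FPKM. The chains of lymphocytes were silent: IL7R had 9, 12 and 10 counts, IL2RA none and IL2RB 0, 4 and 3. Of 22 innate sensors and adaptors 9 were detected, or 40.9%, against 52.0% of all coding genes. They were led by the adaptors TICAM1 at 12.4 ± 1.19 and MAVS at 11.2 ± 0.639 FPKM, CGAS at 9.0 ± 2.39 FPKM and TMEM173, which is STING, at 6.49 ± 0.569 FPKM. TLR4 had 1, 0 and 0 counts, TLR7 and TLR8 had none, and MYD88, the adaptor of most Toll-like receptors, stood at 0.101 ± 0.0294 FPKM although its main transcript overlaps no other gene.

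Of 42 surface antigens aimed at by antibody drugs 23 were detected, or 54.8%, and 13 were silent, or 31.0%, shares close to the 52.0% and 33.8% of all coding genes. NT5E, which is CD73, led the 42 listed with 259, 279 and 243 FPKM, followed, beside AXL, by BSG at 178 ± 7.08, CD63 at 175 ± 16.2, CD44 at 69.997 ± 4.21 and CD151 at 63.4 ± 9.48 FPKM. Antigens of epithelia had no or few counts: CEACAM5, CEACAM6, FOLR1 and MUC16 had no count, NECTIN4 had 1, 3 and 2 counts and MSLN 6, 0 and 6 counts. In the Notch and Hedgehog pathways 16 of 29 genes were detected, or 55.2%, close to the share of all coding genes. The DNA-binding partner of Notch, RBPJ, stood at 20.001 ± 2.85, the coactivator MAML1 at 16.9 ± 0.93, the receptor NOTCH2 at 8.74 ± 1.07 and the Hedgehog transducer SMO at 5.94 ± 0.463 FPKM. In these pathways 7 genes were silent, or 24.1% against 33.8%, among them DLL4 and IHH.

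Of 60 tumour suppressor genes 52 were detected, or 86.7%, against 52.0% of all coding genes, and 5 were silent, or 8.33% against 33.8%. CDKN2A, whose alternative messages encode p16 and p14ARF, had 34.9, 15.1 and 37.2 FPKM, lowest in library 2, and 36.1 FPKM without library 2. Its neighbours on chromosome 9, CDKN2B and MTAP, which are often lost together with it in tumours, were both present, with 11.8, 11.3 and 13.8 and 3.65, 5.19 and 4.69 FPKM. RB1 had 9.02, 13.3 and 11.7 FPKM.

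Of the genes mutated most often in lung adenocarcinoma, KEAP1, which targets NRF2 for destruction, had 33.6, 27.6 and 28.6 FPKM and the kinase STK11 had 9.95, 7.72 and 9.08 FPKM. The cell cycle inhibitors CDKN1A and CDKN1B led the list at 50.2 ± 2.7 and 36 ± 7.84 FPKM, followed after KEAP1 and CDKN2A by CIC at 28.2 ± 2.74 and RASA1 at 26.5 ± 2.38 FPKM. The silent members were FHIT with 15, 12 and 19 counts, CADM1 with 15, 21 and 16, CDH13 with 12, 12 and 10, DAPK1 with 1, 0 and 0 and CDH1 with 1, 0 and 0; apart from the diadenosine hydrolase FHIT and the kinase DAPK1 these encode cell adhesion proteins.

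The RAS genes NRAS and HRAS differed in level. NRAS, which is known to carry an activating mutation in H1299, had 33.1, 42.9 and 37.1 FPKM and HRAS had 13.5, 10.8 and 11.9 FPKM. The lowest NRAS value was above the highest HRAS value. Of 47 oncogenes listed for lung cancer 36 were detected, or 76.6%, against 52.0% of all coding genes. They were led by the survival factor MCL1 at 183 ± 11.3 FPKM, cyclin D1 (CCND1) at 83.4 ± 9.07 FPKM, MYC, the kinase CDK4 at 39.4 ± 1.68 FPKM, with 48.1% of the exon bases of its main transcript free of other genes, and JUN at 38.1 ± 8.6 FPKM.

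**Figure D5:**
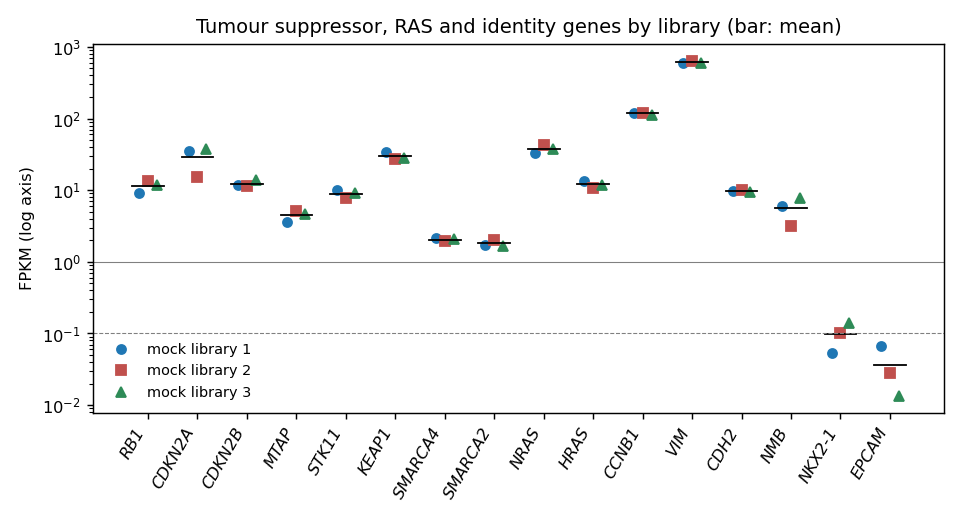
FPKM (log axis) of 16 named genes in mock libraries 1, 2 and 3, each as its own symbol, with the mean as a bar and lines at 1 and 0.1 FPKM. CDKN2A and NMB are lowest in library 2, and so, by smaller margins, are KEAP1, STK11, HRAS, SMARCA4 and CDKN2B. NKX2-1 and EPCAM lie at or below about 0.1 FPKM, and VIM and CCNB1 above 100 FPKM.

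The SWI/SNF complexes, which move nucleosomes, showed low levels of both of their motor subunits. SMARCA4, which encodes BRG1 and is known to be inactivated in H1299, had 2.13, 1.95 and 2.06 FPKM and SMARCA2, which encodes BRM, had 1.71, 2.03 and 1.68 FPKM, with the libraries close together in both. The median of the 28 subunit genes was 6.63 FPKM, and 23 were detected, or 82.1%, against 52.0% of all coding genes. SS18 led at 29.4 ± 0.887 FPKM, followed by ACTL6A at 25 ± 1.51, SMARCC1 at 22.9 ± 1.26, SMARCD1 at 19.5 ± 0.0418, SMARCD2 at 19 ± 0.272 and SMARCC2 at 18.4 ± 0.726 FPKM. SMARCE1, a subunit of nearly all such complexes, was listed at 0.11 ± 0.019 FPKM, but only 40.3% of the exon bases of its main transcript are free of other annotated genes, so a low value cannot be read as absence. ACTL6B, the neuronal counterpart of ACTL6A, had 0, 0 and 2 counts. Enzymes of DNA methylation and of histone marks were detected in 35 of 39 cases, or 89.7%, against the same 52.0%. HDAC1 stood at 59.8 ± 2.76, KDM5C at 27.6 ± 1.49, DNMT1 at 23.4 ± 1.88, HDAC7 at 22 ± 0.28, KDM1A at 20.9 ± 1.21 and KMT2B at 20.2 ± 2.07 FPKM. DNMT3L, a germ cell factor, had no count.

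Cancer-testis genes, which are normally restricted to the germ line and are reactivated in many tumours, were detected in 21 of 44 cases, or 47.7%, against 52.0% of all coding genes. Of the 44, 20 were silent, or 45.5% against 33.8%, 16 of them without a count. On the X chromosome lie 37 of the 44, and 19 of these were detected. MAGEA4 had 314, 328 and 299 FPKM, and PRAME on chromosome 22 had 72.4, 70.01 and 66.2 FPKM. Both varied little between libraries. Members of families with near-identical copies were also high: GAGE2A had 392, 716 and 345 FPKM, GAGE12J 239.5 ± 25.1, XAGE1A 183 ± 5.29 and CTAG1A 144 ± 72.8 FPKM. CTAG1B, which encodes the antigen NY-ESO-1 as CTAG1A does, had 174, 60.2 and 215 FPKM, lowest in library 2, and 194 FPKM without that library. The 12 detected of 13 GAGE entries ran from 5.15 FPKM in GAGE10 to 1323 FPKM in GAGE12G, a division that depends on how reads shared by the copies were counted. SSX1, SSX2, SSX4, MAGEC1, MAGEA8, MAGEA9, MAGEA11 and PAGE1 had no count. The 44 listed genes held 0.825% ± 0.0374 of the summed FPKM, and 1.83% ± 0.101 was held by 54 genes when the GAGE genes outside the list were added.

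Of 15 fetal growth genes 7 were detected, or 46.7%, against 52.0% of all coding genes, and 8 were silent. HMGA2, the relative of HMGA1, stood at 93 ± 7.54 FPKM, the RNA-binding proteins IGF2BP2, IGF2BP1 and IGF2BP3 at 35.8 ± 0.906, 22.3 ± 1.18 and 10.6 ± 1.01 FPKM, and LIN28B, which blocks the let-7 microRNAs, at 17.9 ± 1.55 FPKM. LIN28A had 1, 3 and 1 counts, AFP none and H19 3, 0 and 1. Of 23 imprinted genes 7 were detected, or 30.4%, and 11 were silent, or 47.8%, against 52.0% and 33.8% of all coding genes. GNAS, PEG10 and PHLDA2 led at 91.1 ± 13.4, 67 ± 3.32 and 30.5 ± 11.3 FPKM, of which PHLDA2 was lowest in library 2 with 36, 17.6 and 38 FPKM. SGCE, next to PEG10, stood at 6.39 ± 0.0927 FPKM, PLAGL1 at 5.38 ± 0.0371 and ZDBF2 at 5.37 ± 1.29 FPKM. GRB10 and SNURF had no count, and MEG3 had 6, 5 and 2 counts. For 2 of the 23 imprinted genes, under 50% of the main transcript's exon bases are free of other genes. In such genes a low value cannot be read as absence.

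Genes that maintain telomeres, pump drugs and build the cytoskeleton completed the description. Of 15 telomere genes 13 were detected, or 86.7%, against 52.0% of all coding genes. The H/ACA proteins NOP10 and NHP2 stood at 188 ± 32.5 and 60.5 ± 2.98 FPKM, dyskerin (DKC1) at 29.3 ± 0.214 and the shelterin member TERF2IP at 22.4 ± 4.92 FPKM. TERT, the catalytic subunit of telomerase, stood at 0.334 ± 0.058 FPKM, and TERC, its RNA, had 4, 0 and 0 counts, with 19% of its exon bases free of other genes. Of 11 efflux transporters 7 were detected, or 63.6%, not far from that 52.0%, and none was above 10 FPKM. ABCC4 stood at 6.45 ± 0.093, ABCC1 at 5.71 ± 0.533, ABCC10 at 4.29 ± 0.358 and ABCB1, the multidrug transporter, at 2.68 ± 0.194 FPKM. Of 31 actin, tubulin and lamin genes 29 were detected, or 93.5%, at a list median of 116 FPKM. ACTB stood at 702 ± 99.8, ACTN4 at 360.1 ± 51.1 and TUBB4B at 299 ± 50.4 FPKM.

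Within the S100 and annexin families, calcium-binding proteins near membranes, 13 of 26 genes were detected, or 50%, close to the 52.0% of all coding genes. S100A11, ANXA2, ANXA1, S100A10, ANXA5 and ANXA6 stood at 226 ± 11.8, 132 ± 5.03, 104 ± 4.02, 89.1 ± 12.6, 71 ± 2.47 and 38.7 ± 4.0 FPKM. S100A6, a gene of the same chromosome 1 cluster that many carcinomas express strongly, had 2, 1 and 1 counts in the 3 libraries, a mean of 0.0471 ± 0.0196 FPKM, although 100% of the exon bases of its main transcript are free of other genes. S100A8 and S100A9, of neutrophils, had no count. RNAs that mostly lack a poly(A) tail gave mixed values: the histone gene HIST1H2BK stood at 177 ± 15 FPKM and RN7SL2, of the signal recognition particle, at 100.1 ± 19.7 FPKM, while RN7SK, RMRP and RPPH1, abundant in all cells, had no count and are annotated with exons shared with other genes.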

How the data were processed

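RNA sequencing of 3 libraries of mock-vector H1299 cells was used, and the other 3 libraries of the series were not. The submitters' processing notes name the build GRCh38.p13, the aligner HISAT2 2.1.0, the counter featureCounts 2.0.3, and also bcl2fastq 2.20 and DESeq2. Which annotation release and strand setting were used, and how reads matching several places were handled, is not given in the sources used here. The deposited tables hold raw counts and FPKM per gene, per the file headers. The length that the deposited counts and the authors' FPKM imply together equalled the exon length in GENCODE release 29, to within 0.5 bases, for 29561 of 30379 genes with a count (97.3%). Coordinates, exon overlap and transcript GC content come from that release. A transcript's overlap counts exons of any other gene on either strand. The deposited tables also hold the columns of the 3 libraries not used here, and 0 columns of samples outside the series.

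Means, SDs and shares were computed with Python 3.11.15, numpy 2.4.6 and pandas 2.3.3, and the code was tested on simulated data. No test was made, since 1 group is described. Genes were placed in 46 lists of 1072 genes, 1070 found by symbol and 2 by their current symbol. The lists and the cells described were chosen with earlier results of these data known. The text names the 30 genes with the highest mean, up to 6 members with the highest mean in each list, silent members (for long lists a selection), the 10 genes with the largest ratio between libraries, and a list of 20 genes, among them CDKN2A, NMB and CCNB1. MYD88, SMARCE1, AGER, the glycolytic enzymes, further ribosomal protein and GAGE genes, lower members of some lists and the genes of the closing observations were chosen after their values were seen. XIST and Y-linked genes were left out, and some other genes that this rule names are not reported here. Promoter starts come from the RefSeq table on GRCh38.p14, matched by gene number or symbol; the pattern C followed by 4 letters, each C or T, was read on the gene's strand from the start base.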

Additional observations from a re-analysis of the deposited data

How the results depend on the processing

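The number of detected genes was 11908, and it was 13705 at 0.5 FPKM, 15454 at 1 TPM and 15994 at 10 counts in each library, and between 12081 and 12164 with 1 library left out. Of the listed genes 490 were detected, against 551, 592 and 673 under those 3 rules and between 493 and 500 with 1 library left out. By list, 7, 11 and 19 of the 46 counts moved by over 1.5 times under those rules, all upward, and the 10-count rule also passed genes described as silent, such as FHIT, CADM1, CDH13, COL1A1 and DCN. Without library 2 the counts of 2 lists moved by that much, alveolar type 1 markers to 2 and fibroblast markers to 1. The 100 most abundant genes held 31.7% of summed FPKM, 19.8% of counts, and 28.1% of FPKM without mitochondrially encoded genes. The mitochondrial share was 7.76% of FPKM and 2.01% of counts. The ribosomal protein share was 10.0% of FPKM, 7.65% of counts and 10.8% of FPKM without mitochondrially encoded genes. With 1 library left out these shares ran from 31.1% to 31.9%, from 7.44% to 8.23% and from 9.80% to 10.3%. Genes with a spread over 2-fold numbered 78 at a mean of 5 FPKM, 396 at a mean of 1 FPKM with a pseudocount of 0.1, 49 at a mean of 10 FPKM, and between 17 and 57 with 1 library left out, 17 being the count without library 2. The median coefficient of variation was 9.62%, 9.58% after scaling the libraries by their median ratio, and from 5.56% to 10.1% with 1 library left out. The cause of these differences was not tested beyond what the settings themselves change. No paired analysis was possible because 1 group is described and no result comes from a test. Silent calls were more frequent where exons are nearly all shared: 78.9% of the 673 coding genes whose main transcript is under 10% free of other genes were silent, against 39.0% of 690 genes at 10 to 50%, 21.1% of 5594 above that and 36.6% of the 12898 free throughout.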

Other observations

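Gene families outside the lists gave further detail on position and matrix. The HOX genes, which record a tissue's place along the body axis, were detected in 5 of 11 HOXA, 7 of 10 HOXB, 5 of 9 HOXC and 2 of 9 HOXD genes. These shares were 45.5%, 70%, 55.6% and 22.2%, against 52.0% of all coding genes. HOXB7 and HOXB2 were the highest at 28.2 ± 5.53 and 23 ± 7.61 FPKM, followed by HOXB9 at 12.3 ± 1.57, HOXB4 at 12.2 ± 0.887, HOXC10 at 11.2 ± 0.665 and HOXC8 at 10.1 ± 1.36 FPKM. Of 27 integrin genes 12 were detected, or 44.4%, and ITGB1, ITGA3 and ITGA6, which form laminin receptors, led at 231 ± 11.5, 131 ± 14.7 and 96.4 ± 9.25 FPKM. Laminin genes were detected in 7 of 12 cases, or 58.3%, with LAMC1 at 27.7 ± 1.69 and LAMB3 at 26.2 ± 2.77 FPKM. Only 6 of 44 collagen genes were detected, or 13.6%, led by COL6A2 at 20.4 ± 1.79 and COL6A1 at 13.1 ± 1.19 FPKM. The collagenase MMP1 and the membrane protease MMP14 stood at 72.1 ± 8.7 and 52.4 ± 4.38 FPKM, the highest of 23 matrix metalloproteinase genes.

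Of the secreted signals, the chemokine, FGF ligand, interleukin and type I interferon genes are described here. Few of them were detected: 9.30%, 13.6%, 7.89% and 0%, against 52.0% of all coding genes. Of 43 chemokine genes 4 were detected, and CXCL2, which attracts neutrophils, had 155, 149 and 193 FPKM, far above CCL28 at 3.87 ± 0.57, CXCL16 at 1.31 ± 0.107 and XCL1 at 1.22 ± 0.23 FPKM. FGF5 led 22 FGF ligand genes at 13 ± 2.22 FPKM, and IL32, IL7 and IL11 were the 3 detected of 38 interleukin genes, at 3.79 ± 0.328, 2.91 ± 0.282 and 1.5 ± 0.178 FPKM. None of 17 type I interferon genes was detected. Of 6 HLA class I genes 3 were detected, or 50%, and 2 were silent, at a family median of 1.82 FPKM. HLA-E and HLA-B stood at 24.7 ± 1.01 and 12 ± 0.33 FPKM and the shared class I chain B2M at 55.8 ± 4.9 FPKM. Of 13 HLA class II genes 12 were silent. Families restricted to other tissues were silent almost throughout: 383 of 393 olfactory receptor genes and 93 of 94 keratin-associated protein genes, against 33.8% of all coding genes. By contrast all 8 genes of the cytosolic chaperonin, all 6 of MCM2 to MCM7 and 34 of 37 complex I genes were detected, with medians of 121, 29.9 and 19.2 FPKM. Of 20S proteasome genes 12 of 14 were detected, led by PSMB7 and PSMB1 at 194 ± 11.4 and 185 ± 14.5 FPKM.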
